A study of Homo sapiens with 16 samples.

Results

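CALU, RCN1, RCN2, RCN3 and SDF4 encode the CREC proteins, 5 of the 58721 genes in the deposited tables. They were taken by gene name, and the family was selected on the CALU values, because CALU RNA was higher under both FOXA1 siRNAs in 2 bladder cancer cell lines. The CALU values in FOXA1 siRNA libraries led to this choice and are given as a description, without a test. The question asked of the other 4 genes was whether they share that rise. Of the 5 members, 4 passed the filter on low counts and RCN3 did not.

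CREC proteins (Cab45, reticulocalbin, ERC-55, calumenin) are soluble proteins of the secretory pathway that carry several EF-hand motifs, the loop that binds calcium. Most of them stay in the endoplasmic reticulum or the Golgi lumen, where calcium is high and where many chaperones and folding enzymes need it. Calumenin, the product of CALU, is known for restraining the gamma-carboxylase of the vitamin K cycle. RCN1 and RCN2 encode the reticulocalbins of the endoplasmic reticulum, of which RCN2 is also called ERC-55. RCN3 encodes a further reticulocalbin of the same compartment, and SDF4 encodes Cab45, which sorts secreted cargo in the Golgi.

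RNA was measured by 3' end sequencing in 16 libraries of RT112, a luminal bladder cancer line, and SCaBER, a basal/squamous one. Cells of each line were transfected with 10 nM of siFOXA1.1, siFOXA1.2, siControl.1 or siControl.2 with a lipid reagent, and each siRNA has 2 libraries per line. FOXA1 is a forkhead transcription factor of luminal urothelium, and the study used its short-term knock-down to ask which genes depend on it. RT112 grew in RPMI and SCaBER in DMEM, each with 10% FBS, so that line and medium cannot be told apart. All libraries, controls included, come from transfected cells, and each line stands for 1 tumour. The labels do not say whether replicates are separate cultures, so p-values measure only the spread between these libraries. In such bulk RNA, fewer cells that make a transcript and less transcript per cell cannot be told apart.

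The libraries held between 4528513 and 7604581 counts, and levels are given as CPM, counts per 1000000 counts of the library. FOXA1 lay at 27.8 ± 6.98 CPM (SD, n = 4) in RT112 siControl and at 2.28 CPM under siFOXA1.1, a log2 fold change of -3.44 (edgeR adjusted p = 2.19e-05). Under siFOXA1.2 it lay at 12.6 CPM, a log2 fold change of -1.10 that did not pass (edgeR adjusted p = 0.205). In SCaBER, FOXA1 had 0 to 15 counts per library and did not pass the filter on low counts. An edgeR fit without that filter gave log2 fold changes of -2.21 (SE 2.56) under siFOXA1.1 and -1.19 (SE 2.41) under siFOXA1.2. Neither passed, so the knock-down could not be judged there. Luminal markers summed to 3770 to 6838 CPM in RT112 and 444 to 1016 CPM in SCaBER, and basal markers to 360 to 723 and 2261 to 3801 CPM. Of the defining markers, KRT20 and UPK3A were at 0 in the controls of both lines. Mitochondrially encoded genes took 27.0% ± 1.77 of counts in RT112 siFOXA1.1 (SD, n = 2), against 18.5% to 20.7% in the other RT112 siRNAs and 10.7% to 11.9% in SCaBER.

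The 5 genes lie on 5 chromosomes. In GRCh38.p14, CALU spans chr7:128739359-128773400 on the plus strand, RCN1 chr11:32091074-32105722 (plus), RCN2 chr15:76931749-76954393 (plus), RCN3 chr19:49528003-49543633 (plus) and SDF4 chr1:1216931-1232001 (minus). The 250 bases before the start of CALU and of RCN2 are shown because these are the members whose RNA moved furthest, and in opposite directions. Capitals mark CCAAT or its reverse complement, the box bound by NF-Y.

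CALU promoter, chr7:128739109-128739358, plus strand: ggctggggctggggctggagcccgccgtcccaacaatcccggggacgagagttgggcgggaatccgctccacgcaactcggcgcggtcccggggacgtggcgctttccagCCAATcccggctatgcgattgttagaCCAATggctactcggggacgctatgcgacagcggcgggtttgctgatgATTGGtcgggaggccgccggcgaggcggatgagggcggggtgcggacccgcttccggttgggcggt
RCN2 promoter, chr15:76931499-76931748, plus strand: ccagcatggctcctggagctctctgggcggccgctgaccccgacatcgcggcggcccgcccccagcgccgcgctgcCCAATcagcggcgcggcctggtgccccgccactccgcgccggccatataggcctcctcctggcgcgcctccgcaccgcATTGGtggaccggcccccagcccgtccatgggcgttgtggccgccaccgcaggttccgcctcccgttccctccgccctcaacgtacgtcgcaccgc

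Sequences are from RefSeq, and all 5 members matched an entry. CCAAT, searched on both strands, occurred 3 times before CALU, 3 times before RCN3, 2 times before RCN2 and SDF4, and 1 time before RCN1, and 32.0% of 35116 promoters of the same length held it at least once, 9.53% at least 2 times and 2.93% at least 3 times. GGGCGG, the GC box, occurred 3 times before each gene except SDF4, which held 2, and 42.6% of promoters held it at least once, 24.3% at least 2 times and 13.9% at least 3 times. The forkhead motif TGTTTAC was in none of the 5 windows and in 2.98% of all promoters. These counts describe letters in a short window and carry no measurement of binding.

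In the control libraries, SDF4 was the most abundant family transcript of both lines on the deposited TPM scale, which divides counts by gene length. In RT112, SDF4 lay at 108 ± 13.1 TPM, RCN1 at 92.9 ± 8.73, CALU at 49.3 ± 4.76 and RCN2 at 11.1 ± 3.50 (SD, n = 4 each). SDF4 and RCN1 overlapped in their ranges, and both were above CALU, which was above RCN2 in each library. In SCaBER, SDF4 lay at 148 ± 15.1 TPM, CALU at 87.0 ± 18.1, RCN1 at 44.7 ± 13.8 and RCN2 at 7.32 ± 1.69 (SD, n = 4 each). There the mean of CALU stood above that of RCN1 while their ranges overlapped, and in siControl.1 replicate 2 RCN1 (61.02 TPM) was above CALU (60.68 TPM). Because a 3' kit counts transcript ends, division by length may set genes apart in a way that the counts do not. By CPM the means of the 4 genes stood in the same order in each line. RCN2 was then nearer to CALU, at 56.4 against 114 CPM in RT112 and 28.6 against 155 CPM in SCaBER.

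RCN3 was nearly silent. All 8 RT112 libraries held 0 RCN3 counts, which allows up to 0.394 to 0.453 CPM per library. In SCaBER, 7 of 8 libraries held 0 counts, and siFOXA1.1 replicate 1 held 2 counts. RCN3 is therefore left out of every test below, and a change in it was not detectable at this depth.

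The lines differed in 2 of the 4 measured members at baseline, both reticulocalbins. RCN1 was higher in RT112, with 204, 197, 232 and 257 CPM in its 4 control libraries against 54.0 to 108 CPM in SCaBER, a log2 difference of 1.47 (SE 0.19, edgeR adjusted p = 2.19e-05). RCN2 was higher in RT112 too, at 41.8 to 77.3 CPM against 20.1 to 33.8 CPM, a log2 difference of 0.99 (SE 0.23, edgeR adjusted p = 0.00313). The ranges of RCN1 and RCN2 did not overlap between the lines, and the share of all genes without overlap was not computed. Of all 12309 genes tested in the 8 control libraries, 43.4% passed the same threshold, an adjusted p under 0.05. CALU was lower in RT112 than in SCaBER by a log2 difference of -0.43 (95% interval -0.80 to -0.06), just short of the threshold (edgeR adjusted p = 0.0551). In 7 of 15 alternative settings that difference passed, and over all 15 it was -0.79 to -0.35 (edgeR, DESeq2 or limma adjusted p = 0.00171 to 0.145). DESeq2 and limma each called 3 of the 4 members, but not the same 3. DESeq2 called RCN1, RCN2 and CALU, and limma called RCN1, CALU and SDF4. SDF4 differed by -0.06 in the main fit (95% interval -0.34 to 0.22, edgeR adjusted p = 0.736). On log2(TPM + 1), where the median of all genes shifted by -0.32 between the lines, RCN2 differed by 0.84 relative to that median, and its own p did not pass (limma adjusted p = 0.124). SDF4 differed there by -0.46 (limma adjusted p = 0.0118), or -0.14 relative to that median.

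CALU, the member the family was chosen for, was higher in every FOXA1 siRNA library than in every control library of its line. In RT112 the controls held 113 and 104 CPM (siControl.1) and 120 and 119 CPM (siControl.2). The siFOXA1.1 libraries held 466 and 478 CPM and the siFOXA1.2 libraries 313 and 315 CPM. These were log2 fold changes of 2.19 (SE 0.10, 4.55-fold) and 1.48 (SE 0.11, 2.79-fold) against the mean of both controls. In SCaBER the controls held 164 and 104 CPM (siControl.1) and 182 and 170 CPM (siControl.2), a wider spread set by 1 low library, siControl.1 replicate 2. The siFOXA1.1 libraries held 350 and 317 CPM and the siFOXA1.2 libraries 427 and 432 CPM. The log2 fold changes were 1.15 (SE 0.19, 2.22-fold) and 1.50 (SE 0.19, 2.83-fold). Ordered by fold among the genes tested, CALU stood at place 204 of 11986 and place 181 under the 2 siRNAs in RT112, and at 739 of 11902 and 156 in SCaBER.

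**Figure D1:**
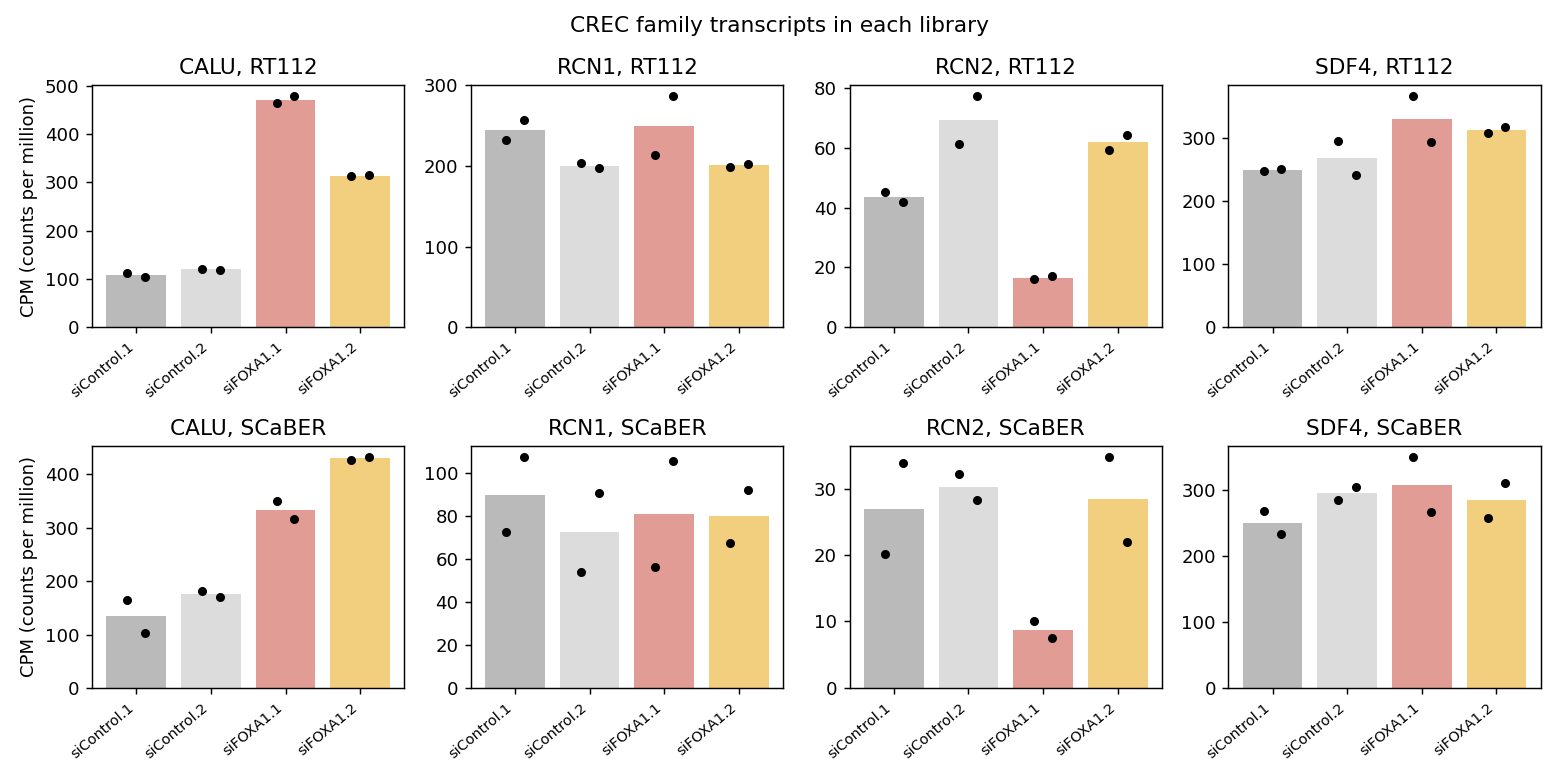
CPM (vertical axis) of CALU, RCN1, RCN2 and SDF4 for each siRNA (horizontal axis) in RT112 (top) and SCaBER (bottom). Points are single libraries and bars their means (n = 2), and the vertical scale differs between panels. CALU is higher under both FOXA1 siRNAs in both lines, while RCN2 is lower under siFOXA1.1 and not under siFOXA1.2.

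The labels number the libraries of each siRNA as experiment batches, and the CALU difference was present within each. In RT112 it was 2.10 and 2.26 on the log2 scale in batches 1 and 2 under siFOXA1.1 and 1.44 and 1.51 under siFOXA1.2. In SCaBER it was 1.08 and 1.25 under siFOXA1.1 and 1.32 and 1.72 under siFOXA1.2. The 2 control siRNAs did not differ detectably in CALU, by -0.08 in RT112 (95% interval -0.35 to 0.19, edgeR adjusted p = 0.894) and by -0.41 in SCaBER (95% interval -0.90 to 0.09, edgeR adjusted p = 0.840).

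As a further description, CALU was higher under siFOXA1.1 than under siFOXA1.2 in RT112, by 0.71 on the log2 scale, and the order was the other way in SCaBER (-0.35). In each line the 2 libraries of 1 FOXA1 siRNA did not overlap those of the other, and how many of all genes do so was not computed. The siFOXA1.1 change was 1.02 larger in RT112 than in SCaBER, and 0.72 to 1.16 over 23 alternative settings, lowest on log2(TPM + 1), where it was 0.95 relative to the median of all genes. The siFOXA1.2 change differed between the lines by -0.02. All of these values come from the libraries by which CALU was chosen, so none carries a test.

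RCN2, the ERC-55 gene, fell under siFOXA1.1 in both lines while CALU was higher. In RT112 its controls held 45.2 and 41.8 CPM (siControl.1) and 61.2 and 77.3 CPM (siControl.2), and the siFOXA1.1 libraries 16.1 and 17.1 CPM. The log2 fold change was -1.59 (SE 0.22, edgeR adjusted p = 2.51e-05), with both siFOXA1.1 libraries below all 4 controls. In SCaBER the controls held 20.1 and 33.8 CPM (siControl.1) and 32.1 and 28.3 CPM (siControl.2), and the siFOXA1.1 libraries 10.0 and 7.52 CPM. The log2 fold change was -1.67 (SE 0.38, edgeR adjusted p = 0.0127), again with no overlap. The share of all genes without overlap in these comparisons was not computed for either line. The SCaBER values rest on 52 and 53 RCN2 counts under siFOXA1.1. The SCaBER call was lost without siControl.2 replicate 1 (edgeR adjusted p = 0.0517), without siFOXA1.1 replicate 2 (edgeR adjusted p = 0.0706) and on log2(TPM + 1) (limma adjusted p = 0.0645), while the log2 fold change in those 3 settings was between -1.35 and -1.62.

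Under siFOXA1.2, RCN2 lay near the controls. RT112 held 59.4 and 64.3 CPM, a log2 fold change of 0.19 (95% interval -0.22 to 0.61, edgeR adjusted p = 0.801). SCaBER held 34.7 CPM, just above the highest control, and 22.0 CPM, a log2 fold change of 0.01 (95% interval -0.71 to 0.74, edgeR adjusted p = 1.00). RCN2 thus differed between the FOXA1 siRNAs by -1.78 in RT112 (SE 0.24, edgeR adjusted p = 3.04e-05) and by -1.68 in SCaBER (SE 0.41, edgeR adjusted p = 0.0305). The SCaBER difference lost its call in 6 of 15 alternative settings. The change under siFOXA1.1 differed between lines by 0.07 (95% interval -0.77 to 0.90, edgeR adjusted p = 1.00). The RT112 controls themselves were apart by -0.60 in RCN2 (95% interval -1.09 to -0.12, edgeR adjusted p = 0.234), less than the fall under siFOXA1.1.

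SDF4, the gene of Cab45, rose under siFOXA1.1 in RT112 by less than CALU differed. Its controls held 248 and 250.5 CPM (siControl.1) and 295 and 240 CPM (siControl.2), and siFOXA1.1 held 365 and 293 CPM, of which only replicate 1 was above all controls. The log2 fold change was 0.48 (SE 0.12, edgeR adjusted p = 0.00423). Without siFOXA1.1 replicate 1 it was 0.34 and no longer passed (edgeR adjusted p = 0.0835). On log2(TPM + 1) it was 0.16 (limma adjusted p = 0.440), or 0.44 relative to the median of all genes, which that scale shifted by -0.29. Under siFOXA1.2 in RT112, 307 and 318 CPM, both above all 4 controls, gave 0.29 (95% interval 0.04 to 0.54, edgeR adjusted p = 0.297). The share of all genes with both libraries above all controls was not computed. In SCaBER the siFOXA1.1 libraries held 349 and 265.5 CPM and the siFOXA1.2 libraries 257 and 310 CPM, against 232 to 305 CPM in the controls. These were log2 fold changes of 0.22 (95% interval -0.18 to 0.61, edgeR adjusted p = 0.545) and 0.08 (95% interval -0.31 to 0.48, edgeR adjusted p = 0.999), and both siRNA groups overlapped the controls.

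RCN1, the most abundant reticulocalbin, did not pass against the controls in any of the 4 comparisons. In RT112 the controls held 232 and 257 CPM (siControl.1) and 204 and 197 CPM (siControl.2). The siFOXA1.1 libraries held 214 and 286 CPM, which stood wide apart, a log2 fold change of 0.31 (95% interval 0.03 to 0.59, edgeR adjusted p = 0.0798). Without replicate 1 of that siRNA the change was 0.52 and passed (edgeR adjusted p = 0.00737), and with siControl.2 as the only control it was 0.49 and passed (edgeR adjusted p = 0.0243). On log2(TPM + 1) the RCN1 change under siFOXA1.1 turned to -0.03, or 0.26 relative to the median of all genes. The siFOXA1.2 libraries held 199 and 202 CPM (-0.12, 95% interval -0.41 to 0.16, edgeR adjusted p = 0.817). RCN1 differed between the FOXA1 siRNAs in RT112 by 0.44 (edgeR adjusted p = 0.0430), a call that was lost in 9 of 15 alternative settings.

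In SCaBER, RCN1 was ordered by batch. Replicate 2 was above replicate 1 under each of the 4 siRNAs, at 108 against 72.5 CPM (siControl.1), 91.0 against 54.0 (siControl.2), 106 against 56.2 (siFOXA1.1) and 92.4 against 67.6 (siFOXA1.2). Against the controls, the log2 fold change was 0.03 under siFOXA1.1 (95% interval -0.58 to 0.64, edgeR adjusted p = 0.967) and 0.01 under siFOXA1.2 (95% interval -0.60 to 0.62, edgeR adjusted p = 1.00). Within batches it was -0.10 and 0.10 under siFOXA1.1 and 0.12 and -0.07 under siFOXA1.2.

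**Figure D2:**
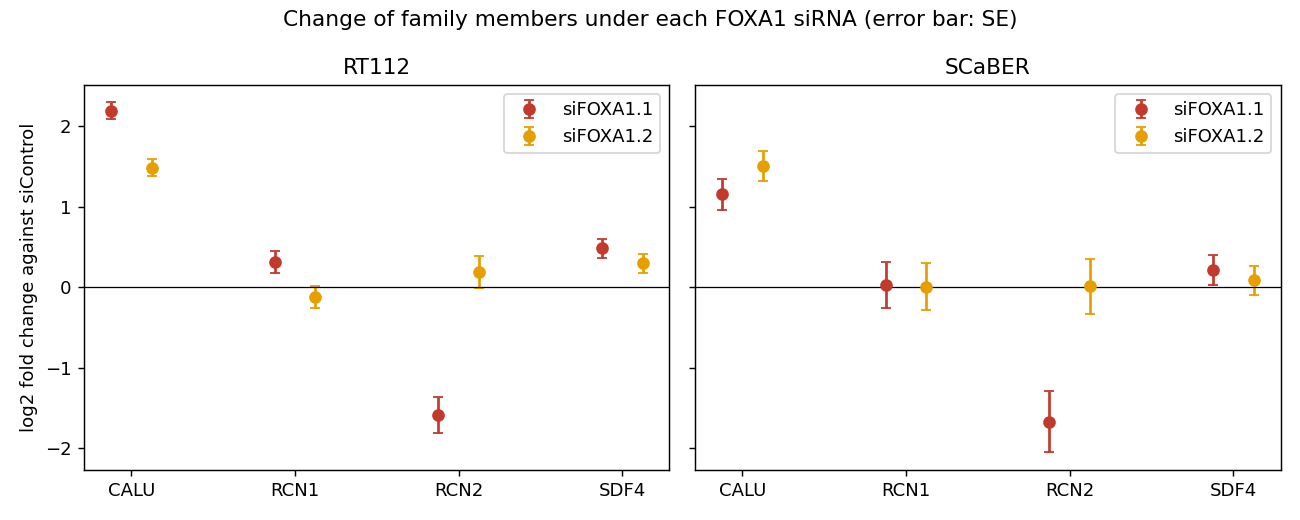
Log2 fold change (vertical axis) of each member (horizontal axis) under siFOXA1.1 and siFOXA1.2 against the mean of both control siRNAs, in RT112 (left) and SCaBER (right). Points are edgeR estimates from 2 siRNA and 4 control libraries and bars are standard errors. CALU lies between 1.15 and 2.19 in all 4 comparisons, RCN2 at -1.59 and -1.67 under siFOXA1.1, and RCN1 and SDF4 between -0.12 and 0.48.

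Counted over the 3 tested members other than CALU, 2 passed under siFOXA1.1 in RT112, RCN2 lower and SDF4 higher, where 32.6% of all 11986 genes tested passed (15.6% higher and 17% lower). Under siFOXA1.1 in SCaBER, RCN2 alone passed, lower, where 9.26% of 11902 genes passed (4.47% higher and 4.79% lower). Under siFOXA1.2, 0 of 3 passed by edgeR in RT112, where 2.04% of genes passed, and 0 of 3 in SCaBER, where 0.042% passed. At an unadjusted p under 0.05 these counts were 1 (SDF4) and 0, and DESeq2 and limma also gave 0 in both lines. With both FOXA1 siRNAs pooled against both controls, 0 of 3 passed by edgeR, DESeq2 and limma in either line, with 1 (SDF4) in RT112 and 0 in SCaBER at an unadjusted p under 0.05. The share of all genes that passed the pooled test was 0.108% in RT112 and 0.0084% in SCaBER. Between the FOXA1 siRNAs, 2 of 3 passed in RT112, RCN2 and RCN1 (28.1% of all genes), and 1 of 3 in SCaBER, RCN2 (4.85% of all genes). Between the lines, 0 of 3 differed in the siFOXA1.1 change (3.14% of 13701 genes) and 0 of 3 in the siFOXA1.2 change (0.0438%) by edgeR, DESeq2 and limma, with 0 and 0 at an unadjusted p under 0.05. Between the control siRNAs, 0 of 4 passed in RT112 (2.36% of all genes) and 0 of 4 in SCaBER (0.0672%) by edgeR, DESeq2 and limma, with 2 and 0 at an unadjusted p under 0.05. Neither RCN1, RCN2 nor SDF4 passed as higher in both lines under either siRNA, while SDF4 had positive log2 fold changes in all 4 comparisons (0.08 to 0.48). The comparisons of a line share their control libraries, so they are not independent of each other.

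The summed RNA of the family was higher in all FOXA1 siRNA libraries, and most of the difference lay in CALU. Summed over the 5 genes, RT112 held 646 and 657 CPM under siControl.1 and siControl.2, 1067 CPM under siFOXA1.1 and 889 CPM under siFOXA1.2 (means of 2 libraries). CALU made up 16.8% and 18.2% of that sum in the controls, 44.2% under siFOXA1.1 and 35.3% under siFOXA1.2. In SCaBER the sums were 501, 573, 731 and 822 CPM in the same order, with CALU at 26.5%, 30.8%, 45.6% and 52.4%. Without CALU, the other members summed to 537.2, 537.1, 595 and 575 CPM in RT112 and to 367, 397.1, 397.3 and 392 CPM in SCaBER, in the same order. RCN2 made up 6.75% and 10.6% of the sum in the RT112 controls and 1.56% under siFOXA1.1. These shares include the values by which CALU was chosen and are descriptions.

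**Figure D3:**
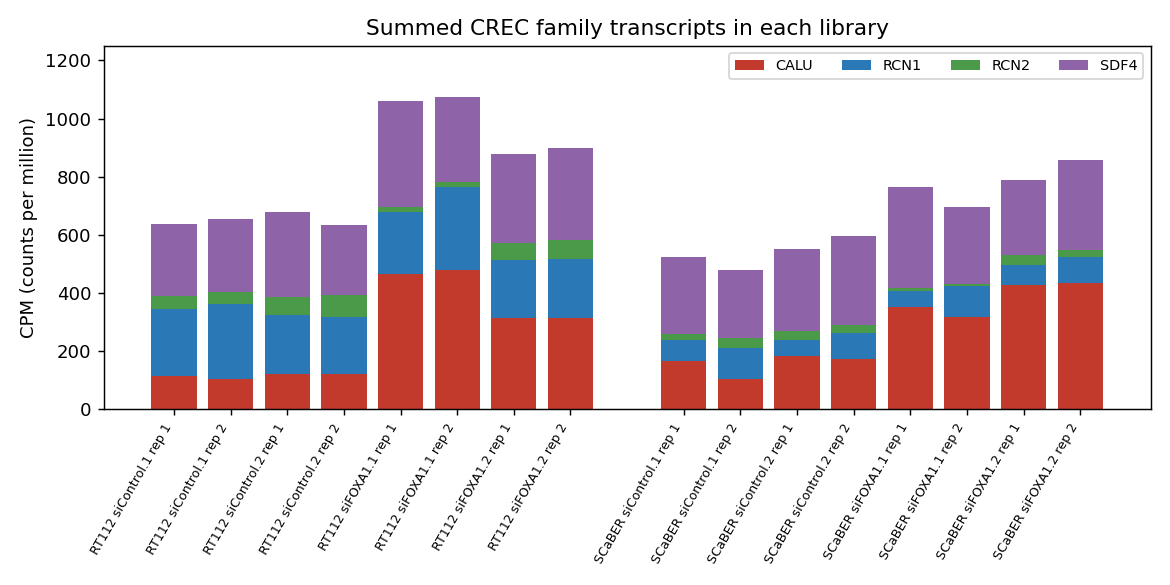
Summed CPM of the family (vertical axis) in each of the 16 libraries (horizontal axis), stacked by member. RCN3 is not drawn, since it had 0 counts in 15 libraries and 2 in the other. The CALU part is larger in all FOXA1 siRNA libraries, and RCN2 is a thin band that narrows under siFOXA1.1.

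Overlapping genes could add reads to CALU. OPN1SW, a cone opsin gene on the minus strand, overlaps the CALU 3' end by 916 bases and had 0 counts in all 16 libraries. RN7SL81P, a pseudogene inside CALU, had 19 counts over the 16 libraries against 27260 for CALU. Of 47 listed genes within 500 kb of CALU, 30 were in the table and 10 were tested in RT112. Under siFOXA1.1, 1 of them was higher, PRRT4 (log2 fold change 3.57, edgeR adjusted p = 0.00648), and 1 lower, HILPDA, a lipid droplet protein gene (-0.69, edgeR adjusted p = 0.0498). Of all genes tested there, 15.6% were higher and 17% lower. PRRT4 was near the floor in the RT112 controls, at 0.916 ± 0.810 CPM (SD). In SCaBER, HILPDA alone passed of 11 tested, again lower (-1.31, edgeR adjusted p = 0.0182), where 4.79% of all genes were lower. Under the same siRNA the median change of the tested neighbours was -0.09 in RT112 and -0.56 in SCaBER, against -0.01 and 0.01 over all genes. The SCaBER median was the value of 1 imprecise gene, AHCYL2 (SE 1.27, edgeR adjusted p = 0.858). Whether the neighbours share a fall was not tested. Under siFOXA1.2 the medians were -0.23 in RT112 and -0.11 in SCaBER.

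The same fits were read for 5 lists of genes that work beside the CREC proteins. Their counts stand against the 32.6% of all genes that passed under siFOXA1.1 in RT112 (15.6% higher and 17% lower), 9.26% under siFOXA1.1 in SCaBER (4.47% higher and 4.79% lower), 2.04% under siFOXA1.2 in RT112 and 0.042% under siFOXA1.2 in SCaBER. Lumenal EF-hand proteins outside the family moved both ways: of 6 tested, 2 rose and 2 fell under siFOXA1.1 in RT112, 2 rose and 1 fell in SCaBER, 1 rose under siFOXA1.2 in RT112 and 0 passed in SCaBER (1 at an unadjusted p under 0.05). MCFD2, which carries clotting factors out of the endoplasmic reticulum, rose from 73.9 ± 25.4 CPM (SD, n = 4) to 150 ± 3.84 (SD, n = 2) under siFOXA1.1 in RT112 (log2 fold change 1.22, edgeR adjusted p = 5.18e-06). It also rose under siFOXA1.2 in RT112 (0.73, edgeR adjusted p = 0.0133) and under siFOXA1.1 in SCaBER (1.19, edgeR adjusted p = 0.00389). Under siFOXA1.2 in SCaBER its change of 0.71 did not pass (edgeR adjusted p = 0.652). FKBP14, a prolyl isomerase of collagen folding, rose under siFOXA1.1 in RT112 (1.14, edgeR adjusted p = 0.000194) and SCaBER (0.90, edgeR adjusted p = 0.0120). FKBP9, of the same enzyme family, fell from 27.1 ± 5.47 CPM to 1.17 ± 1.03 in RT112 (-4.37, edgeR adjusted p = 2.40e-06) and from 42.3 ± 6.43 to 16.0 ± 8.92 in SCaBER (-1.38, edgeR adjusted p = 0.0200). NUCB1, a Golgi calcium protein, fell under siFOXA1.1 in RT112 (-0.67, edgeR adjusted p = 0.0146). The list's median change was -0.18 under siFOXA1.1 in RT112 and 0.46 in SCaBER.

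Of 14 folding proteins of the endoplasmic reticulum tested, 6 rose and 1 fell under siFOXA1.1 in RT112 (15.6% and 17% of all genes). In SCaBER, 3 rose under siFOXA1.1 (4.47% of all genes). Under siFOXA1.2, 2 rose in RT112 (2.04% passed in either direction), and 0 passed in SCaBER by edgeR (1 at an unadjusted p under 0.05). CALR, the lectin chaperone calreticulin, rose in RT112 from 859 ± 96.6 CPM to 1300 ± 99.7 under siFOXA1.1 (0.74, edgeR adjusted p = 3.69e-06) and to 1087 ± 63.5 under siFOXA1.2 (0.36, edgeR adjusted p = 0.0350). PDIA4, a disulphide isomerase, rose in RT112 under siFOXA1.1 (0.63, edgeR adjusted p = 0.00648) and siFOXA1.2 (0.85, edgeR adjusted p = 0.00827), and under siFOXA1.1 in SCaBER (0.90, edgeR adjusted p = 0.0154). Under siFOXA1.2 in SCaBER its change of 0.62 did not pass (edgeR adjusted p = 0.719). P4HB, another disulphide isomerase, rose under siFOXA1.1 in RT112 (0.73, edgeR adjusted p = 4.88e-05), and HYOU1, a lumenal chaperone, rose under it in SCaBER (0.78, edgeR adjusted p = 0.0446). UGGT1, the glycoprotein folding sensor, fell in RT112 (-0.62, edgeR adjusted p = 0.0423). The median change was 0.31, 0.17, 0.40 and 0.21 for siFOXA1.1 and siFOXA1.2 in RT112, then for siFOXA1.1 and siFOXA1.2 in SCaBER, against -0.01 to 0.01 over all genes. HSPA5, the chaperone BiP and a marker of unfolded protein stress, had log2 fold changes of 0.07, 0.17, -0.26 and 0.35 in the same order, none of which passed (edgeR adjusted p = 0.397 to 0.945). PDIA6 of the same list rose under siFOXA1.1 in RT112 (0.64, edgeR adjusted p = 5.31e-05) and SCaBER (0.50, edgeR adjusted p = 0.0446). DNAJC3 (0.54, edgeR adjusted p = 0.0167) and HSP90B1 (0.25, edgeR adjusted p = 0.0349) rose under it in RT112. Whether unfolded protein stress had a part in these values was not tested.

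Of the calcium pumps, channels and sensors, 2 of 13 passed under siFOXA1.1 in RT112 (32.6% of all genes) and 1 of 14 in SCaBER (9.26%). In RT112, TMCO1, a leak channel of the endoplasmic reticulum, rose under siFOXA1.1 (1.00, edgeR adjusted p = 2.50e-06) and ITPR1, a calcium release channel, fell (-2.46, edgeR adjusted p = 0.00157). In SCaBER, RYR2, another release channel, rose from 15.2 ± 8.67 to 57.3 ± 17.0 CPM under siFOXA1.1 (2.06, edgeR adjusted p = 0.00133). Under siFOXA1.2, 0 passed by edgeR in either line, with 2 and 0 at an unadjusted p under 0.05. The pumps ATP2A2 and ATP2C1, which fill the endoplasmic reticulum and the Golgi with calcium, changed by -0.16 to 0.19 in the 4 comparisons, and none passed.

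Among 9 retrieval and cargo receptors, which return proteins to the endoplasmic reticulum or carry them out of it, 3 rose and 1 fell under siFOXA1.1 in RT112, against 15.6% and 17% of all genes. LMAN2, a lectin cargo receptor, rose from 134 ± 10.6 to 251 ± 2.06 CPM (1.04, edgeR adjusted p = 3.85e-06), ERGIC3 rose (0.92, edgeR adjusted p = 4.15e-05) and KDELR1, which retrieves KDEL proteins, fell (-0.39, edgeR adjusted p = 0.00802). In the other 3 comparisons 0 of 9 passed by edgeR, with 2, 1 and 0 at an unadjusted p under 0.05 for siFOXA1.2 in RT112, siFOXA1.1 in SCaBER and siFOXA1.2 in SCaBER. Of the vitamin K cycle and its substrates, 5 of 13 genes were tested in RT112 and 6 in SCaBER, and only VKORC1L1, a vitamin K epoxide reductase gene, passed, higher under siFOXA1.2 in RT112 (0.79, edgeR adjusted p = 0.0443). GGCX, the carboxylase that calumenin restrains, changed by -0.05 to 0.38 and did not pass.

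**Figure D4:**
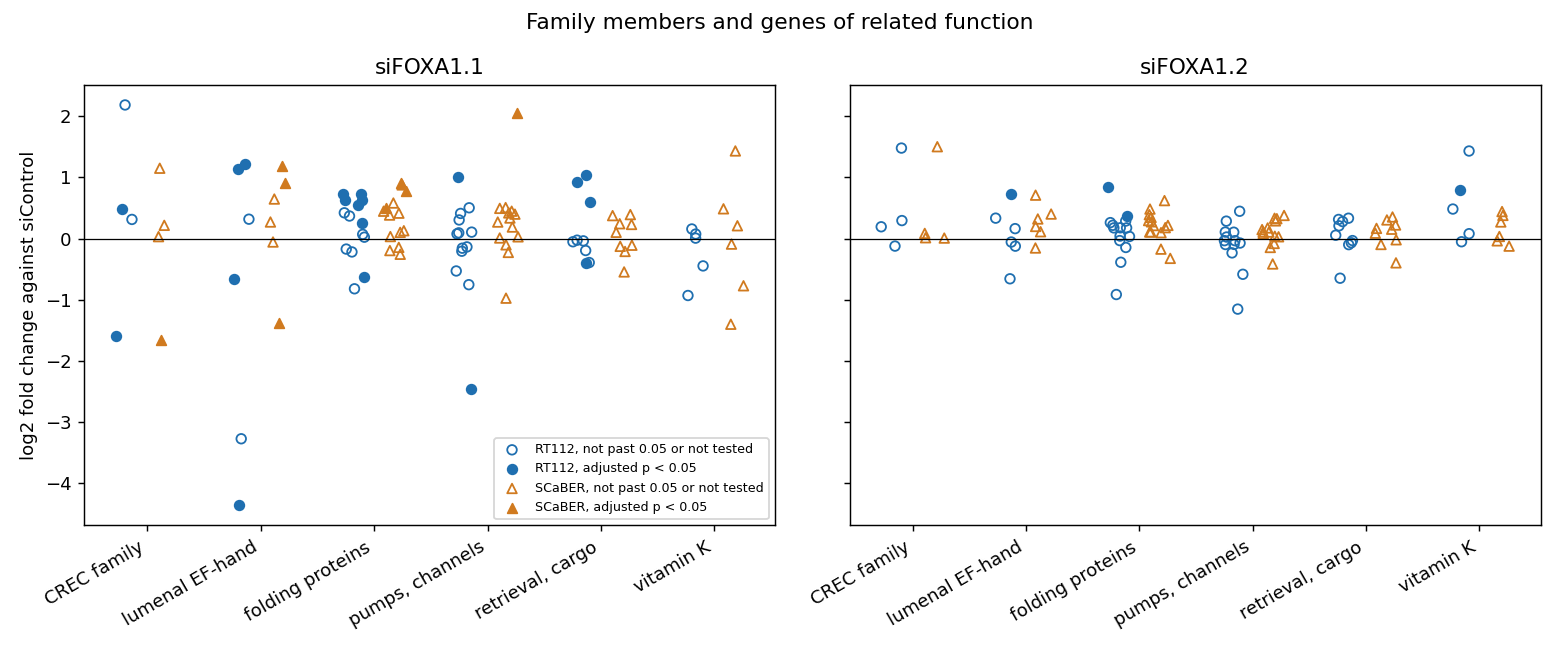
Log2 fold change against the controls (vertical axis) of each tested member of the family and of 5 related lists (horizontal axis) under siFOXA1.1 (left) and siFOXA1.2 (right). Circles are RT112 and triangles SCaBER, filled where the edgeR adjusted p is under 0.05, and CALU, the top open symbol of the family in each line, was given no test. Each list holds genes on both sides of 0, and fewer symbols are filled under siFOXA1.2.

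The genes whose pattern was most like CALU's over the 16 libraries were PTPN14 (Pearson r 0.92), a phosphatase of the Hippo pathway, FAM49B (0.90), SPTLC2 (0.88), the sphingolipid synthesis enzyme, G3BP2 (0.87), a stress granule protein, and APPBP2 (0.87). The likeness was taken on log2 CPM centred within each line over 10286 genes. By the same measure SDF4 had r 0.74 and place 115, RCN1 r 0.04 and place 4663, and RCN2 r -0.54 and place 9148. All genes share the same libraries and depth here, so these values describe the pattern and carry no test. Within lines, SDF4 had r 0.88 in RT112 and 0.52 in SCaBER (8 libraries each). The 5 leading genes were 0.38 to 1.39 higher on the log2 scale in all 4 comparisons, less than CALU in each. They were picked for likeness to CALU over these same libraries, so their rise follows from that choice and is a description.

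The mitochondrial share moved with siFOXA1.1 in RT112 and the marker lists with several groups, and their values stand here beside those of the members. Without mitochondrially encoded genes, the log2 fold changes under siFOXA1.1 in RT112 were 2.18 for CALU, 0.31 for RCN1, -1.59 for RCN2 and 0.48 for SDF4, as large as with them. All 7 tested luminal markers, FOXA1 among them, fell under siFOXA1.1 in RT112 (17% of all genes), and of the 8 basal markers 3 rose and 2 fell (15.6% and 17%). Under siFOXA1.2 in RT112, 2 of 7 luminal markers fell and 3 of 8 basal markers rose (2.04% of all genes passed). In SCaBER, 1 of 5 luminal markers fell under siFOXA1.1 (4.79% of all genes) and 0 of 8 basal markers passed by edgeR (1 at an unadjusted p under 0.05). The luminal markers of RT112 summed to 6008 to 6838 CPM in the controls, 3770 to 4250 under siFOXA1.1 and 4811 to 4959 under siFOXA1.2. Those of SCaBER summed to 760 to 1016 CPM in the controls, 444 to 509 under siFOXA1.1 and 852 to 855 under siFOXA1.2. Most of that SCaBER sum was KRT18, at 838 ± 99.1 CPM in the controls, against 12.3 for GATA3 and 22.8 for PPARG. KRT18 was also the 1 luminal marker that fell there, to 434 ± 45.8 CPM under siFOXA1.1 (-0.91, edgeR adjusted p = 0.00328). The basal markers of RT112 summed to 360 to 519 CPM in the controls, 474 to 608 under siFOXA1.1 and 639 to 723 under siFOXA1.2, and those of SCaBER overlapped the controls under both siRNAs. The 8 stromal markers summed to 104 to 109 CPM in RT112 siFOXA1.1, within the 84.6 to 139 CPM of the controls, and to 142 to 146 CPM in RT112 siFOXA1.2, above them. Under siFOXA1.1 in RT112, COL1A1 rose from 8.76 ± 1.40 to 55.2 ± 1.84 CPM (2.80, edgeR adjusted p = 7.23e-07) and LUM fell (-0.78, edgeR adjusted p = 0.00104). COL1A2, COL3A1, DCN, PDGFRA, PDGFRB, CDH5, VWF, PTPRC, CD3E and LYZ were at 0 in the RT112 controls, while PECAM1, an endothelial marker, lay at 4.32 ± 1.87 CPM (SD, n = 4) and CD68, a macrophage marker, at 0.0657 ± 0.131. The part of these marker shifts in the member values was not tested.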

How the data were processed

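Total RNA of RT112 and SCaBER cells was converted into 3' end libraries with the QuantSeq FWD kit and sequenced in single-read mode. The configuration file that the authors deposited names TrimGalore 0.6.2 for trimming (minimum quality 20, minimum length 10), STAR 2.6.1a for alignment, hg38 and GENCODE 29, whereas the methods of the study name hg19. The authors deposited raw counts per gene, which were tested as they are, and TPM values, in which counts are divided by gene length and scaled to 1 total. The labels give 10 nM of siRNA and the methods give an amount by weight.

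The members and the lists of related genes were chosen with earlier results of these data known. Genes named from a list are those past the threshold with the largest changes, at most 2 rising and 2 falling per list, siRNA and line. HSPA5, PDIA6, DNAJC3, HSP90B1, ATP2A2, ATP2C1, GGCX and further markers were picked after their values were seen.

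CPM were taken from the library totals. Each line was fitted with edgeR 4.0.16 in R 4.3.3 (quasi-likelihood F test, TMM, filterByExpr by line and target), with 1 mean per siRNA and siControl as the mean of both control siRNAs. The difference between lines was fitted on all 16 libraries and the baseline on the 8 siControl libraries. P-values are two-sided and adjusted by Benjamini-Hochberg over all genes tested, and the threshold was 0.05. Where a count is 0, the limit is that of 3 counts. Intervals and limits cover counting or library error only. Overlap of libraries between groups was read for the members and not for all genes, so each statement of no overlap is a description. The fit of siFOXA1.1 against siControl in RT112 was tested on simulated counts before use. CALU was left out of every test that uses FOXA1 siRNA libraries, a choice widened after seeing the data. Alternatives were DESeq2 1.42.0 and its size factors, library totals, no filter beyond 1 count, limma 3.58.1 on log2(TPM + 1), a replicate block, omission of mitochondrially encoded genes or of each library, and, added after seeing the data, 1 control siRNA as the only control.

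The labels name the replicate number an experiment batch, so it pairs the libraries. The deviations of equally numbered libraries from their group means correlated by -0.02 to 0.01 in RT112 and 0.02 to 0.20 in SCaBER. Replicates of a group differed by more than counting noise (chi-square per degree of freedom 8.56 to 36.8), so none was counted as a repeat. Total counts were 4528513 to 7604581 per library.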

Additional observations from a re-analysis of the deposited data

Results flagged for a closer look

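RCN1 in RT112 siFOXA1.1 replicate 2, at 286 CPM, lay apart from the other 3 FOXA1 siRNA libraries of RT112, which held 199 to 214 CPM. Its gap to the nearest library took 0.833 of the range of the 4, above the critical value of 0.829. These 4 libraries come from both FOXA1 siRNAs. Of 16 combinations of member, line and target examined, this was the 1 marked, and chance marks about 1 in 20.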

How the results depend on the processing

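Under siFOXA1.1 in RT112, which members passed varied with the setting, as given above for SDF4 and RCN1. The number of members past the threshold there was 2, with 1 on log2(TPM + 1) and 3 with siControl.2 as the only control. Between the FOXA1 siRNAs in RT112 it was 2, fell to 1 on log2(TPM + 1) and with library totals, and was 1 to 2 when 1 library was left out. Under siFOXA1.1 in SCaBER and between the FOXA1 siRNAs in SCaBER it was 1, fell to 0 on log2(TPM + 1), and was 0 to 1 when 1 library was left out. The cause of these shifts was not tested. With the replicate block, all counts of members past the threshold were the same, and RCN2 under siFOXA1.1 had log2 fold changes of -1.59 in RT112 and -1.68 in SCaBER. RCN1 in RT112 held its baseline call in all 15 alternatives, while CALU's baseline difference passed in 7 of 15 (SDF4's in 1, on log2(TPM + 1), with -0.46).

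Changes near 0 turned sign. On log2(TPM + 1), RCN1 under siFOXA1.1 was -0.028 in RT112 and -0.030 in SCaBER, RCN1 under siFOXA1.2 in SCaBER was -0.005, RCN2 there was -0.025, and the line difference in RCN2 under siFOXA1.1 was -0.26. With library totals, RCN1 and RCN2 under siFOXA1.2 in SCaBER were -0.014 and -0.01, and the RCN2 line difference -0.018. With the replicate block, RCN2 under siFOXA1.2 in SCaBER was -0.0096. With siControl.2 as the only control, siFOXA1.2 gave RCN1 0.052 and RCN2 -0.11 in RT112, and RCN2 -0.077 and SDF4 -0.040 in SCaBER. With siControl.1 as the only control, RCN1 in SCaBER was -0.12 for siFOXA1.1 and -0.14 for siFOXA1.2. With 1 library left out, SCaBER siFOXA1.1 gave -0.45 to 0.39 for RCN1 and -0.033 to 0.44 for SDF4, and SCaBER siFOXA1.2 gave -0.23 to 0.21 for RCN1, -0.36 to 0.31 for RCN2 and -0.05 to 0.21 for SDF4. The line difference was then -0.17 to 0.31 for RCN2 under siFOXA1.1 and -0.22 to 0.13 for CALU under siFOXA1.2. None of the tested values among these passed the threshold.

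RCN2 is the member with fewest counts, 52 to 556 per library, and a change in RCN3 was below what these libraries can show. In SCaBER the intervals of RCN1 reached 0.58 to 0.64 on the log2 scale to either side, so smaller changes were not detectable by this fit. It had no replicate block, so its spread includes the RCN1 difference between replicates. Within batches the RCN1 changes there were -0.10 to 0.12.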
